A study of Mus musculus with 4 samples.

Results

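The mouse Th2 cytokine locus on chromosome 11 held 30 regions of open chromatin, of 93679 regions in the whole series, in CD4+ T cells polarized towards induced regulatory T cells (iTreg) with or without IL-4. The regions were chosen by position alone. Every ATAC-seq peak was taken from 50 kb beyond Il4 to 50 kb beyond Il5, a window of 212644 bases at chr11:53562460-53775103 (mm10), and peaks of the 4 libraries that shared at least 1 base were merged into 1 region. The window covers Kif3a, Il4, Il13, Rad50 and Il5 whole, and the start of Irf1. Regions are numbered here from 1, at the start of Kif3a, to 30, at the start of Irf1.

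ATAC-seq uses a transposase to cut and tag DNA where chromatin is accessible, and a peak is a stretch with more tags than its surroundings. The cells were naive CD4+ T cells (CD62LhighCD44lowCD25-) sorted from the spleen of 7-week-old male wild-type C57BL/6 mice. All of them were stimulated for 48 h on bound anti-CD3 at 5 µg/ml, with anti-CD28 (1 µg/ml), human TGF-β1 (5 ng/ml) and mouse IL-2 (10 ng/ml). The 2 iTreg+IL-4 libraries also received mouse IL-4 (15 ng/ml), and the 2 iTreg+PBS libraries received none. The study describes the samples of a condition as biologically independent pools, so a library averages over animals and over all cells of a culture, and more open cells cannot be told apart from wider opening in each cell.

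Il4, Il13 and Il5 encode the type 2 cytokines: IL-4 drives B cells to make IgE and drives T helper 2 (Th2) differentiation, IL-13 acts on airway epithelium and mucus, and IL-5 supports eosinophils. The 3 genes lie close together and are switched on in concert in Th2 cells by elements spread over the locus. Known elements lie within Il4, downstream of its 3′ end, between Il4 and Il13, just upstream of Il13, and in the 3′ part of Rad50, where a locus control region sits inside a gene with an unrelated role. Rad50 encodes a DNA double-strand break repair protein and Kif3a a subunit of the kinesin-2 motor, and both are used in many cell types. IL-4 signals through STAT6, and STAT6 raises GATA3, the lead transcription factor of Th2 cells.

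The sequences at the centres of 7 regions and the whole of region 4 are shown first, to be read beside the motif counts below. No call, rank or fit uses them, and other regions that hold either motif are not printed. They are forward-strand reference sequence of the RefSeq mouse assembly GRCm38, the same build as mm10. In regions 2, 7 and 12, capitals mark the letters TTCNNNNGAA, the spacing typical of STAT6 sites, and these regions represent Kif3a, the 3′ side of Il4 and the stretch between Il4 and Il13.
Region 2, Kif3a intron 5, chr11:53581477-53581776: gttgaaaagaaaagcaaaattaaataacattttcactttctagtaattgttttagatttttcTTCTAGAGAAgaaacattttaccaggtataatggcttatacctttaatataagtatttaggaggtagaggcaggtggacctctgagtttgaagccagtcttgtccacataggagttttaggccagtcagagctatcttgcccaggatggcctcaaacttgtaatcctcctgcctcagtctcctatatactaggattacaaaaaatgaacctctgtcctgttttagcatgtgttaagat
Region 7, between Kif3a and Il4, chr11:53605413-53605712: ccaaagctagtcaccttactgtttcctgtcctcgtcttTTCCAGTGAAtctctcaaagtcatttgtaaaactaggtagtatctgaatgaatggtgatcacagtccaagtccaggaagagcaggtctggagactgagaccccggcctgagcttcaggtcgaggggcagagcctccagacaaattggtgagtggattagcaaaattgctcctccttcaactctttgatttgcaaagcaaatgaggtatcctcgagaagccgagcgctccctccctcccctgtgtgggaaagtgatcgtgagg
Region 12, between Il4 and Il13, chr11:53627398-53627697: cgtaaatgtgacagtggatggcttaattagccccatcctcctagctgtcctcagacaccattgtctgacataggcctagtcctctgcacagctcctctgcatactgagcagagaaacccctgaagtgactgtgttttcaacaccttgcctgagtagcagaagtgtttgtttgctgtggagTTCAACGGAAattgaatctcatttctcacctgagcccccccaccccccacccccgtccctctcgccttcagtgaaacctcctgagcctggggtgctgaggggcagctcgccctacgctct
In regions 14 to 17, capitals mark GATAA or its reverse complement TTATC, the core of GATA sites. Region 14 is the one upstream of Il13, and regions 15, 16 and 17 lie at the 3′ end of Rad50.
Region 14, upstream of Il13, chr11:53636190-53636489: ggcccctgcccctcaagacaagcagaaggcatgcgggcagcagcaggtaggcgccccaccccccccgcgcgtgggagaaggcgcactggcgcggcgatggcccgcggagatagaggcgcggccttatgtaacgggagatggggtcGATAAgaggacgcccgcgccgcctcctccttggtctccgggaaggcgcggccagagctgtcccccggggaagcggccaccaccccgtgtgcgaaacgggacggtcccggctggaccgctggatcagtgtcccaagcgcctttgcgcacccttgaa
Region 15, Rad50 intron 24, chr11:53651058-53651357: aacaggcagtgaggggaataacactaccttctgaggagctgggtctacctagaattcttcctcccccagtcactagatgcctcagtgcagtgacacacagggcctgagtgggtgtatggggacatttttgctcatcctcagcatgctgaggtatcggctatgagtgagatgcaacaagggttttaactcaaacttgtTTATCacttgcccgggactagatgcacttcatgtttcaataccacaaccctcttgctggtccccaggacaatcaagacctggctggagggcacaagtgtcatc
Region 16, Rad50 intron 22, chr11:53655149-53655448: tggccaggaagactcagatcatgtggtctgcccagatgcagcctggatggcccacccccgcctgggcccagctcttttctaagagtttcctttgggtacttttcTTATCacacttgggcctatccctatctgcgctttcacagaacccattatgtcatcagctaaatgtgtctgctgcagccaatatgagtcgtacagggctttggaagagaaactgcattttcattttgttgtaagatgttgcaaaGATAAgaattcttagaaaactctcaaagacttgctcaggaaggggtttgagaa
Region 17, Rad50 intron 21, chr11:53656796-53657095: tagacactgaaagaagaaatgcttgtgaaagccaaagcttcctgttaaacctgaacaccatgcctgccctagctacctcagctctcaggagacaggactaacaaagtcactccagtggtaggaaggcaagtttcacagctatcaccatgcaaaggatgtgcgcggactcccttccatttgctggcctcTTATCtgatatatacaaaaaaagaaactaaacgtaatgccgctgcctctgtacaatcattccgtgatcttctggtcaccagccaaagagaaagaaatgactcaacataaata
Region 4, the one found with IL-4 in both replicates and never without it, has no match to either motif and so no capitals.
Region 4, Kif3a intron 9, chr11:53589660-53589878: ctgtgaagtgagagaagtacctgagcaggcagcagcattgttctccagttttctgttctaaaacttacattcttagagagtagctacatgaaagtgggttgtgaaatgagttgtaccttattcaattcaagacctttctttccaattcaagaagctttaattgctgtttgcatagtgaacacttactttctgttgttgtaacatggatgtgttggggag

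The peak lists differed in length, which bears on every result below. iTreg+PBS replicates 1 and 2 held 77064 and 56645 peaks, and iTreg+IL-4 replicates 1 and 2 held 78670 and 67743. iTreg+PBS replicate 2 stood apart with the shortest list and the lowest median height, 32 against 44 to 53 in the other libraries. Read depth was not recorded in the lists. The defining T cell genes fitted the label, with a peak within 1 kb of the start of 10 of 10 T cell genes in each library. Of 10 genes of other cell types, 0 to 2 had such a peak in a library: Ms4a1, a B cell gene, in 3 libraries and Pax5, a B cell factor, in iTreg+IL-4 replicate 1. Their part in the results was not tested.

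**Figure D1:**
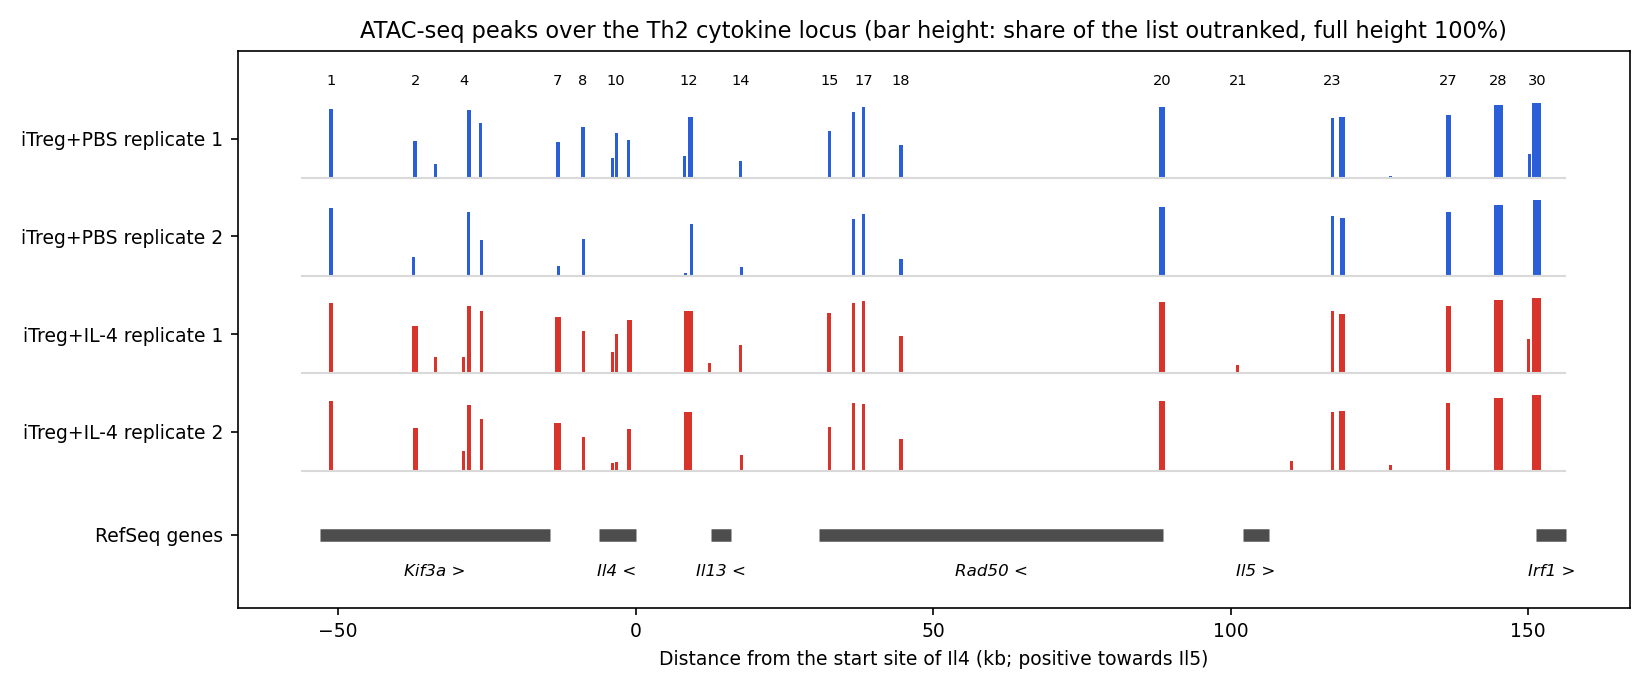
Peaks of each library along the locus, with distance from the start site of Il4 in kb on the x axis and bar height giving the share of that library's list that the peak outranks (full height 100%). Blue bars are iTreg+PBS, red bars iTreg+IL-4, numbers name selected regions, and from 1 kb before the start of Rad50 to the end of Il5 there is no peak in 3 libraries.

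Open chromatin was denser over the locus than over the chromosome in each library. Peaks covered 7.34% and 5.24% of the window in iTreg+PBS and 8.39% and 7.37% in iTreg+IL-4, against 1.79% to 2.58% of chromosome 11. The window held 26 and 18 peaks in iTreg+PBS and 27 and 24 in iTreg+IL-4, which overlap between the conditions. The mean number of peaks was 22.0 ± 5.66 (SD, n = 2) in iTreg+PBS and 25.5 ± 2.12 (SD, n = 2) in iTreg+IL-4, a difference of 3.5 within the spread between replicates (two-sided exact permutation test, p = 0.667).

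Bases inside peaks numbered 15601 and 11134 in iTreg+PBS and 17838 and 15664 in iTreg+IL-4. Both iTreg+IL-4 values lay above both iTreg+PBS values, but replicate 2 of iTreg+IL-4 exceeded replicate 1 of iTreg+PBS by little. The means were 13368 ± 3159 (SD, n = 2) and 16751 ± 1537 (SD, n = 2), with a two-sided exact permutation p = 0.333, the smallest that 2 libraries against 2 can give. Without iTreg+PBS replicate 2 the difference of 3383.5 bases fell to 1150, and the difference in number of peaks turned to -0.5.

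To relate the locus to the length of each list, the share of the window in peaks was divided by the share of chromosome 11 in peaks of the same library, a measure chosen after the values were seen. The ratio was 2.89 and 2.93 in iTreg+PBS and 3.25 and 3.27 in iTreg+IL-4. The conditions did not overlap, and the difference of 0.355 exceeded the pooled SD of 0.0228 (two-sided exact permutation test, p = 0.333, again the smallest possible). In the upper 50% of each list the difference was 0.791, so its size depends on how much of each list is used. Between the outer ends of Il4 and Il5, without the flanks, the ratios were 1.95 and 1.83 against 2.60 and 2.36.

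Of the 30 regions, 17 were called in all 4 libraries (56.7%, against 51.0% of all regions), 4 in 3 libraries, 4 in 2 and 5 in 1. Their median width was 562.5 bases, against 457 over all regions. The regions called in 3 libraries were 9, 10 and 11, all in Il4 intron 2, and 15, in Rad50 intron 24, and iTreg+PBS replicate 2 was the library that lacked each of them. That library was also the one missing from 72.9% of all regions of the series called in 3 libraries.

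With IL-4 in both replicates, and without it in neither, there was a peak at 1 region, number 4 in Kif3a intron 9. This is 3.33% of the 30 regions, near the 2.6% of all regions with that pattern. With lists cut to equal length the count was 0, and with a library left out it was 1 to 5. Leaving a library out raises the share over all regions too. Without iTreg+PBS replicate 1 the pattern also takes in regions missing from iTreg+PBS replicate 2 alone, 9.97% of all regions. No region showed the reverse, a pattern held by 0.699% of all regions. Region 4 was weak, with a value read as −log10 q of 7.67 and 9.36 in iTreg+IL-4 replicates 1 and 2. It outranked 20.9% and 25.9% of those lists, and lay 518 bases from region 5, a stronger region over Kif3a exon 10 that each library called.

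**Figure D2:**
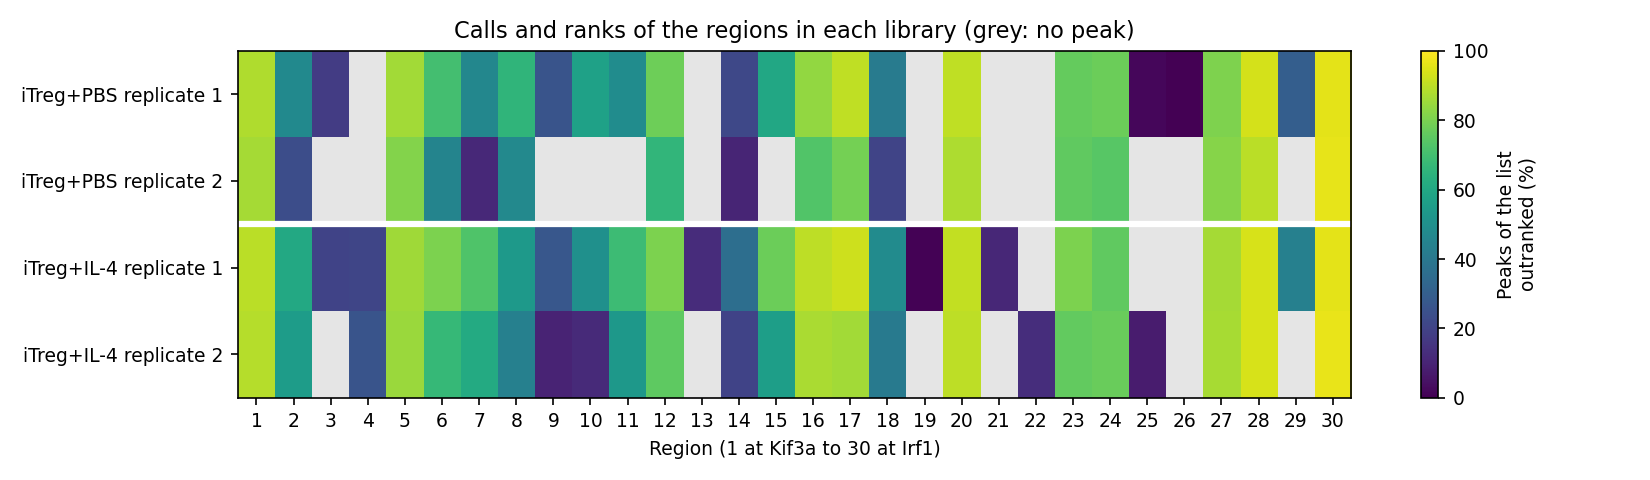
Rank of each region (x axis, 1 to 30) in each library (rows), as the percentage of that library's peaks it outranks by the value read as −log10 q; grey marks no peak. The grey cells of regions 9, 10, 11 and 15 all fall in iTreg+PBS replicate 2, and region 4 has colour in both iTreg+IL-4 rows alone.

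Because a peak's −log10 q grows with depth, regions were compared by rank within a library. The first rank is the percentage of the library's own list that a peak outranks. The shorter list of iTreg+PBS replicate 2 shifts that percentage, so a second rank, the percentage outranked of the 47767 regions called in all 4 libraries, was added after the first was seen.

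Among the 17 regions called in every library, 8 ranked higher in both iTreg+IL-4 libraries than in either iTreg+PBS library by the second rank, against 14.4% of all such regions. They were regions 2 and 6 in Kif3a, 7 on the 3′ side of Il4, 12 and 14 around Il13, 16 and 18 in Rad50, and 28 beyond Il5. This is 47.1% of the 17. Some margins were narrow. The lowest iTreg+IL-4 value against the highest iTreg+PBS value was 64.82% against 64.77% in region 12 and 90.08% against 89.82% in region 28. In region 6 it was 53.3% against 52.0%. One region, number 8 on the 3′ side of Il4, ranked lower in both, or 5.88% against 12.7% of all. By rank within the whole list, 6 of 17 were higher (35.3%, against 19.8% of all) and none lower (5.18% of all). Regions 2, 7, 16 and 28 were higher by both ranks, and regions 1 and 27 by rank within the whole list alone. By bases inside peaks, a measure also added after values were seen, 6 were wider in both iTreg+IL-4 libraries (35.3%, against 22.5%) and 3 narrower (17.6%, against 6.7%). Neighbouring regions of one locus and the 4 libraries they come from are shared, so these counts are descriptions.

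Fitted with limma on normal scores of the second rank over all 47767 shared regions, no region of the locus or of the genome passed an adjusted p of 0.05, in either direction (0.0% of all higher and 0.0% lower). At an unadjusted p under 0.05 there were 4 of the 17 locus regions (23.5%) and 1791 of all shared regions (3.75%). With a library left out, which leaves 1 condition a lone library, the locus counts fell to 0 of 17 without iTreg+IL-4 replicate 1 (3.05% of all), 1 of 17 without iTreg+IL-4 replicate 2 (2.02%), 1 of 21 without iTreg+PBS replicate 2 (4.05%) and 2 of 17 without iTreg+PBS replicate 1 (9.85%). The median difference was 0.11 over the 17 regions and 0.00 over all shared regions, on the normal score scale. Above 0 were 13 of the 17, and 23866 of the 47767 shared regions. The 4 regions were 2, 7, 8 and 16. Regions 2, 6, 7 and 8 fall outside the naming rule and were singled out after their values were seen.

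**Figure D3:**
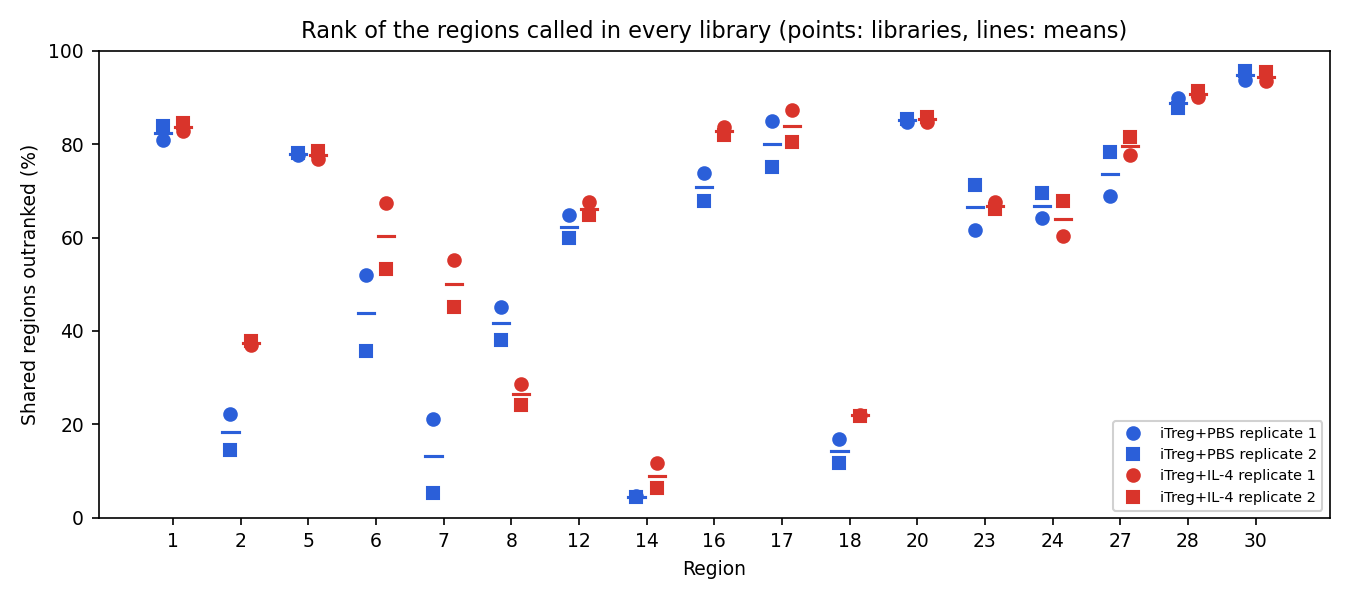
Percentage of the 47767 regions called in all 4 libraries that each of the 17 locus regions outranks, by library, with blue for iTreg+PBS, red for iTreg+IL-4, circles for replicate 1, squares for replicate 2 and short lines for means of 2. Region 7 shows the widest gap between the conditions and region 8 the opposite order, while regions 1, 5, 20 and 30 sit together.

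On the 3′ side of Il4 the 2 regions between Il4 and Kif3a stood in opposite orders by rank among shared regions. Region 7 (chr11:53605033-53606093) lies 6366 bases beyond the end of Il4 and 784 beyond the end of Kif3a. It outranked 21.1% and 5.27% of shared regions in iTreg+PBS and 55.1% and 45.2% in iTreg+IL-4, so the lowest iTreg+IL-4 value was above the highest iTreg+PBS value. The peak was 565 and 476 bases wide in iTreg+PBS and 931 and 1061 in iTreg+IL-4. The fitted rank difference was 1.22 on the normal score scale (SE 0.32, 95% interval 0.35 to 2.09; unadjusted p = 0.0173, adjusted p = 1.00, limma), and 0.73 without iTreg+PBS replicate 2. The match to TTCNNNNGAA printed above, TTCCAGTGAA at chr11:53605451-53605460, lay inside the peak of each library.

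Region 8 (chr11:53609449-53610163), 2296 bases beyond the end of Il4, outranked 45.2% and 38.2% of shared regions in iTreg+PBS and 28.7% and 24.1% in iTreg+IL-4. Both iTreg+IL-4 libraries were lower by this rank. By rank within the whole list the conditions overlapped, at 65.5% and 47.1% against 54.0% and 43.5%, as they did by height (65.6% and 43.5% against 61.7% and 50.2%) and by width (701 and 383 bases against 538 and 521). The fitted difference was -0.42 (SE 0.15, 95% interval -0.82 to -0.02; unadjusted p = 0.0439, adjusted p = 1.00, limma). It was the one region of the 17 with this order by the second rank.

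Within Il4 all 3 regions lay in intron 2. No library had a peak over the upstream start site of Il4 at chr11:53618665, and the nearest peak was 1033 and 8168 bases away in iTreg+PBS and 686 and 740 in iTreg+IL-4. Region 11 (chr11:53617200-53617979) spans the other annotated Il4 start, of a non-coding transcript. It had values of 24.1 in iTreg+PBS replicate 1, no peak in replicate 2, and 52.8 and 25.2 in iTreg+IL-4, and outranked 48.8%, 68.6% and 53.4% of the 3 lists. Its peak was 420 bases wide in iTreg+PBS replicate 1 and 780 and 708 in iTreg+IL-4.

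Regions 9 (chr11:53614650-53614934) and 10 (chr11:53615193-53615580), nearer the 3′ end, did not follow region 11. Region 10 outranked 57.2% of the list of iTreg+PBS replicate 1 and 50.0% and 11.9% of the iTreg+IL-4 lists. Region 9 outranked 25.8%, against 27.1% and 9.94%. Neither was called in iTreg+PBS replicate 2, so bases inside peaks over Il4 came to 1000 and 0 in iTreg+PBS and 1373 and 1204 in iTreg+IL-4.

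Between Il4 and Il13, region 12 (chr11:53626802-53628294) was the widest of the locus at 1493 bases. In each iTreg+PBS library it was made of 2 separate peaks, and in each iTreg+IL-4 library of 1 continuous peak. Its bases inside peaks were 1054 and 813 in iTreg+PBS and 1479 and 1396 in iTreg+IL-4. By rank the conditions lay close, at 64.8% and 59.9% of shared regions outranked against 67.6% and 64.8%, with a fitted difference of 0.10 (SE 0.14, 95% interval -0.26 to 0.47; limma).

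No library had a peak over the start of Il13, the nearest lying 1356 to 1665 bases away. Region 14 (chr11:53636058-53636622), centred 1638 bases upstream of that start, was called in all 4 libraries but was weak. It outranked 4.59% and 4.47% of shared regions in iTreg+PBS and 11.7% and 6.39% in iTreg+IL-4, and the fitted difference of 0.33 had an interval that spanned 0 (SE 0.17, 95% interval -0.13 to 0.79; limma). At the 3′ end of Il13, region 13 had a peak in replicate 1 of iTreg+IL-4 alone, where it outranked 12.9% of the list.

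The last 25 kb of Rad50, where the locus control region lies, held 4 regions, 3 of them with a peak in each library. Regions 16 and 17 were the highest ranked of these. Region 17 (chr11:53656666-53657225) outranked 84.9% and 75.2% of shared regions in iTreg+PBS and 87.3% and 80.5% in iTreg+IL-4, which overlap. Region 16 (chr11:53655054-53655544) outranked 73.9% and 67.9% in iTreg+PBS and 83.6% and 81.9% in iTreg+IL-4, which do not overlap. Its fitted difference was 0.39 (SE 0.14, 95% interval 0.01 to 0.78; unadjusted p = 0.0467, adjusted p = 1.00, limma).

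Region 18 (chr11:53662870-53663649) was weaker, at 16.9% and 11.8% against 22.1% and 21.8%, with a fitted difference of 0.29 (SE 0.14, 95% interval -0.10 to 0.68; limma). Region 15 (chr11:53650897-53651519) had no peak in iTreg+PBS replicate 2 and outranked 59.9% of the list in replicate 1, against 77.5% and 56.2% in iTreg+IL-4. The conditions overlapped there. The rest of Rad50 held the promoter, region 20, and region 19 in intron 17, present in replicate 1 of iTreg+IL-4 alone.

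**Figure D4:**
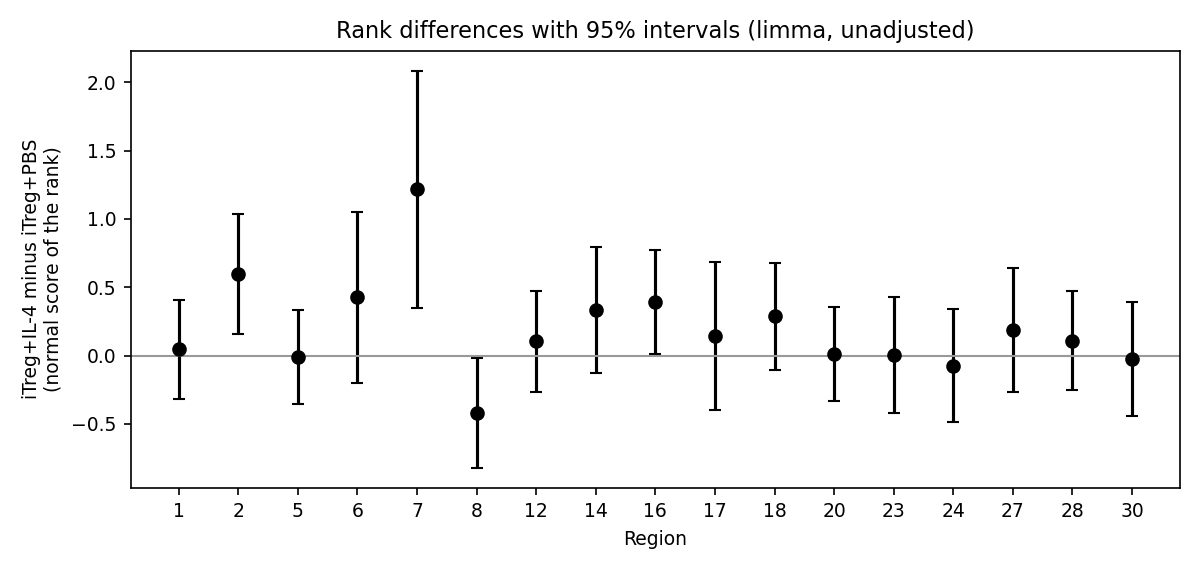
Difference in normal score of rank, iTreg+IL-4 minus iTreg+PBS, for the 17 regions called in every library, with bars for unadjusted 95% intervals from limma. The intervals of regions 2, 7 and 16 lie above 0 and that of region 8 below, and none passed the test after adjustment over 47767 regions.

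Gene starts used in many cell types were called in each library, at ranks among shared regions that lay close together. Region 20, over the start of Rad50, outranked 84.8% and 85.4% of shared regions in iTreg+PBS and 84.7% and 85.9% in iTreg+IL-4 (fitted difference 0.01, 95% interval -0.34 to 0.35; limma). Its peaks were 949 and 947 bases wide in iTreg+PBS and 972 and 992 in iTreg+IL-4, so it is among the regions counted above as wider. Region 1, over the start of Kif3a, outranked 80.9% and 83.9% against 82.8% and 84.5% (0.05, 95% interval -0.31 to 0.41). Within the whole list region 1 outranked 88.2% and 86.4% against 89.5% and 89.0%, so it is among those counted above as higher by that rank. Region 30, over the start of Irf1, an interferon-responsive transcription factor, was the highest of the locus at 93.7% and 95.7% against 93.5% and 95.4% (-0.03, 95% interval -0.45 to 0.39). Region 28, over the start of the microRNA gene Mir7671, is set apart from these, since its conditions did not overlap by rank among shared regions. It outranked 89.8% and 87.8% against 90.1% and 91.4% (0.11, 95% interval -0.25 to 0.47), while its peaks were narrower with IL-4, at 1401 and 1426 bases against 1436 and 1431.

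Within Kif3a, region 2 (chr11:53581150-53582103, intron 5) outranked 22.2% and 14.4% of shared regions in iTreg+PBS and 37.1% and 37.9% in iTreg+IL-4. Its peaks were 795 and 249 bases wide in iTreg+PBS and 954 and 816 in iTreg+IL-4, again without overlap. The fitted difference was 0.59 (SE 0.16, 95% interval 0.16 to 1.03; unadjusted p = 0.0193, adjusted p = 1.00, limma). Region 6 (chr11:53592445-53592962, intron 10) stood at 52.0% and 35.8% against 67.5% and 53.3%, with an interval that spanned 0 (0.43, SE 0.23, 95% interval -0.20 to 1.05). Its difference was 0.19 without iTreg+PBS replicate 2 and 0.24 without iTreg+IL-4 replicate 1.

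Il5 itself held no region. The nearest peak to its start was 13158 and 13146 bases away in iTreg+PBS, and 780 and 7964 in iTreg+IL-4. The near one was region 21, centred 939 bases upstream of the start, which had a peak in replicate 1 of iTreg+IL-4 alone and outranked 11.1% of that list. Beyond Il5 lay 9 regions, 5 of them in all 4 libraries, and the bases inside peaks there were 5911 and 4937 in iTreg+PBS and 5461 and 5396 in iTreg+IL-4, which overlap.

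Motifs were searched on both strands in the 300 bases at the centre of each region, and the same was done for 93503 of all regions. GATAA was found in 12 of 30 locus regions (40.0%, against 25.2% of all). They were all 4 of the last 25 kb of Rad50, region 14 upstream of Il13, and regions 3, 6, 8, 10, 21, 25 and 26. Of these, region 8 ranked lower with IL-4 among shared regions, and region 26 was called in iTreg+PBS replicate 1 alone. Region 3 held 3 matches and region 16 held 2. TTCNNNNGAA was found in 4 (13.3%, against 8.35%), in regions 2, 7, 12 and 25. Across the series this motif was in 18.5% of regions found in both replicates with IL-4 alone, 5.51% of those found in both replicates without it alone and 7.70% of the shared regions. In the same order, GATAA was in 36.4%, 23.7% and 23.1%.

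TTCNNNGAA, a STAT spacing with 1 base fewer between its arms, was found in 5 (16.7%, against 11.7%) and the AP-1 letters TGANTCA in 6 (20%, against 16.7%). The Runx letters TGTGGT were found in 7 (23.3%, against 28.6%), the NFAT letters GGAAAA in 7 (23.3%, against 20.6%) and the CTCF core in 3 (10.0%, against 8.89%). The same split of the series (with IL-4 alone, without it alone, shared) gave 10.3%, 11.3% and 11.8% for TTCNNNGAA. TGANTCA was in 16.1%, 9.04% and 14.4%, and TGTGGT in 29.4%, 25.1% and 26.7%. GGAAAA was in 19.3%, 22.1% and 20.9%, and the CTCF core in 10.4%, 15.6% and 8.66%. In region 7 the NFAT match overlaps the TTCNNNNGAA match. A match says only that the letters are present.

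Around 28 other genes of the Th2 pathway, each with 10 kb on either side, 354 regions were found, and 12 had a peak in both replicates with IL-4 and none without it (3.39%, against 2.6% of all). Of the 12, 5 lay at Ikzf1 alone, and 1 each at Gata3, Stat6, the receptor gene Il4ra, the kinase gene Jak1, Nfatc1, Satb1 and Crlf2. The reverse pattern was held by 2 regions (0.565%, against 0.699% of all). Of 196 shared regions there, 40 ranked higher within the whole list in both iTreg+IL-4 libraries (20.4%, against 19.8% of all) and 5 lower (2.55%, against 5.18%). Around 10 genes that oppose the pathway, such as Tbx21 and Foxp3, 4 of 103 regions were called only with IL-4 (3.88%), at Runx3, Stat4 and Foxp3, and none the reverse. With 10 kb on either side counted, such a region need not be an element of the gene. The study reports, from its ATAC-seq tracks, that IL-4 closed the promoter and nearby regulatory regions of Foxp3. Counts of calls do not measure that signal. Of 60 shared regions there, 10 ranked higher within the whole list (16.7%) and 3 lower (5.0%). None of either list passed limma's adjusted p.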

How the data were processed

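ATAC-seq libraries were analysed as 4 deposited peak lists, 2 per condition. Per the study's methods, the authors sequenced on the BGISEQ-500, mapped read pairs to mm10 and called peaks. The submitters' processing notes name Bowtie2 2.2.5, MACS2 2.1.2 and bedtools 2.16.2. Treatment of duplicates, mitochondrial reads and the Tn5 offset was not given in the sources used here. The lists carry no header: the first deposited value column was read as −log10 q-value, since its lowest value (1.31) sits just above −log10 of 0.05 (1.301), and the next deposited column as a signal, the peak height.

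Peaks sharing at least 1 base were merged in Python 3.11.15 (pandas 2.3.3, numpy 2.4.6) and gene positions and sequence taken from RefSeq GRCm38 (samtools 1.23.1, pysam 0.24.0). Ranks over regions called in all 4 libraries were turned into normal scores and fitted with limma 3.58.1 (R 4.3.3), Benjamini-Hochberg adjusted over all 47767. Totals were tested by exact permutation. The fit and merging were tested on simulated data. For the fit, large shifts were planted in noise independent between libraries. That cannot show whether differences of the size reported here would be found. Regions were named in full where called in one condition alone, within 1 kb of a start site, or between the end of Il4 and the last 25 kb of Rad50. The members and lists were chosen with earlier results of these data known. p-values measure only the spread between these libraries.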

Additional observations from a re-analysis of the deposited data

How the results depend on the processing

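No rank difference of the locus passed an adjusted p of 0.05 (limma) under any setting run: 0 regions in each. The smallest adjusted p was 0.64 with all 4 libraries, under the replicate block, and 0.308 without iTreg+PBS replicate 1. With a library left out, 1 condition is a lone library, assumed to vary like the other pair, so those fits say little about stability. The replicate numbers come from the titles and do not state a pairing. Deviations of same-numbered libraries correlated at r = 0.393 over 47767 regions. The libraries did not group by treatment. Spearman rho between the replicate 1 libraries of the 2 conditions was 0.966, and between the replicate 2 libraries 0.931. Within iTreg+PBS it was 0.903 and within iTreg+IL-4 0.936. At an unadjusted p under 0.05 there were 4 of 17 locus regions, 5 under the replicate block (29.4%, against 7.73% of all shared regions), 1 of 11 in the upper 50% of each list (9.09%, against 3.18%), 1 of 14 where at least 50% of a region had to be covered (7.14%, against 3.60%), and 0 to 2 with a library left out. The replicate block left the difference in bases inside peaks at 3383.5 (2237 and 4530 within replicates 1 and 2).

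The number of regions called only with IL-4 was 1. It was 3 in the upper 50% of each list (regions 2, 7 and 11) and 0 with lists of equal length, and 1 to 5 with a library left out: 5 without iTreg+PBS replicate 1, 4 without iTreg+IL-4 replicate 2 and 2 without iTreg+IL-4 replicate 1. By the calls of the full merge, these 3 settings add a further 9.97%, 8.04% and 4.00% of all regions, in that order, to the 2.6% with the pattern. The number called only without IL-4 was 0, and 0 to 1 with a library left out, with region 26 the one called without iTreg+PBS replicate 2. That setting adds a further 7.30% of all regions to the 0.699% with this pattern. The difference in number of peaks ranged from -0.5 (without iTreg+PBS replicate 2) to 7.5. The difference in bases ranged from 1150 to 5617. The difference in coverage relative to chromosome 11 was 0.355, and became 0.791 in the upper 50% of each list and 0.592 without the 50 kb flanks. It ranged from 0.334 to 0.376 with a library left out. The cause of these shifts was not tested. Over the settings that could be run, the fitted difference in normal score stayed above 0 for region 7 (0.73 to 1.60), region 2 (0.40 to 0.73) and region 16 (0.28 to 0.56) and below 0 for region 8 (-0.53 to -0.11). With a library left out it ranged from 0.19 to 0.62 for region 6, 0.04 to 0.17 for region 12, 0.16 to 0.48 for region 14 and 0.18 to 0.38 for region 18. For region 28 the range was 0.05 to 0.16. On log2 values centred on the library median, another scale, regions 7, 2, 16 and 8 stood at 1.89, 0.91, 0.83 and -0.72. Of the other 13 regions, 7 whose fitted difference lay near 0 changed its sign in 1 or more of the settings, 16 times in all. By height the difference was 0.0809 for region 5, -0.0004 for region 20 and 0.0085 for region 30. On log2 values centred on the library median it was -0.0172 for region 1, -0.1107 for region 20 and -0.0597 for region 23. With a library left out it ranged from -0.0086 to 0.0978 for region 1, -0.0387 to 0.0196 for region 5, -0.0271 to 0.319 for region 17, -0.0168 to 0.0345 for region 20, -0.1275 to 0.1232 for region 23, -0.1705 to 0.0273 for region 24 and -0.1242 to 0.0651 for region 30.

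With 2 libraries a condition no exact test can go below p = 0.333, and without read depth a missing peak cannot be read as closed chromatin.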

Other observations

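Several weak regions ranked higher by peak height than by the value read as −log10 q, among them regions 3, 4, 9, 13 and 29. Region 13 at the end of Il13 outranked 12.9% of the list of iTreg+IL-4 replicate 1 by −log10 q and 43.4% by height. Region 4 in Kif3a intron 9 outranked 20.9% and 25.9% of the iTreg+IL-4 lists by −log10 q and 55.2% and 55.3% by height. Region 29, centred 1188 bases before the start of Irf1, was called in replicate 1 of each condition, and it was picked with its values in view. It outranked 30.0% of the iTreg+PBS list by −log10 q and 74.8% by height, and 43.4% and 78.2% of the iTreg+IL-4 list.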
